A study of Homo sapiens with 4 samples.

Results

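The genes described here build, store and burn fatty acids in MIA-PaCa2 cells, a line from a human pancreatic carcinoma, untreated or resistant to AMG510. They were chosen by name for their step in the pathway, 35 genes in all, with earlier results of these data known. All 35 had an Ensembl identifier among the 57773 listed in the count files. AMG510, also called sotorasib, is a targeted drug known to reduce RAF-MEK-ERK signalling. Polyadenylated RNA was sequenced from 2 untreated populations and from 2 populations selected over 2 months in a dose of AMG510 that was raised to 5 µM. All 4 were kept in DMEM with fetal calf serum, and whether the resistant cells still had drug at harvest is not given in the labels. One tag of resistant replicate 2 gives the treatment as AMG511, unlike its title, which has AMG510. Resistant populations came from 1 parental line, and nothing says that the untreated libraries were cultured apart, so p-values measure only the spread between these libraries.

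Fatty acids are made in the cytosol from acetyl-CoA. ATP citrate lyase and acetyl-CoA synthetase supply it, acetyl-CoA carboxylase turns it into malonyl-CoA, and fatty acid synthase joins these units into palmitate. Elongases and desaturases lengthen the chain and add double bonds, synthetases activate it with coenzyme A, and the glycerolipid enzymes attach it to glycerol for membranes or lipid droplets. In the other direction, lipases free it from droplets, the carnitine shuttle brings it into mitochondria, and beta-oxidation shortens it. SREBP-1, the product of SREBF1, is a transcription factor known to drive many genes of the synthetic arm.

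Total expected counts lay between 30146559 and 38052558 per library, and a gene with 0 counts may still be at 0.104 CPM (3 counts). CPM is the read count normalised to the scaled library size. KRT8 and KRT18, the keratins of simple epithelia, were above 957 CPM in all 4 libraries, and of the 5 adipocyte markers examined ADIPOQ, LEP and CIDEC had 0 counts in each. Summed adipocyte markers lay between 0.244 and 1.38 CPM. The 5 epithelial markers summed to 5635 and 3955 CPM in untreated and to 2054 and 2619 CPM in resistant libraries. KRT8 (log2 fold change −1.23, adjusted p = 0.00268) and KRT18 (−0.88, adjusted p = 0.00692) were lower in resistant cells, and KRT19 did not pass (−0.50, adjusted p = 0.179). EPCAM was low, between 1.33 and 2.09 CPM, and KRT7 was at 0.401 CPM or less in each library. The 4 hepatocyte markers summed to 22.1 and 13.4 CPM in untreated and to 1.79 and 1.78 CPM in resistant libraries, which was nearly all SERPINA1 (log2 fold change −3.33, adjusted p = 7.20e-05), and APOB and TTR had 0 counts in each. The 4 leukocyte markers summed to 6.12 and 6.22 CPM in untreated and to 1.62 and 1.81 CPM in resistant libraries, nearly all CD14 (−1.89, adjusted p = 0.00263), and PTPRC was at 0.134 CPM or less in each. The 5 fibroblast markers summed to 1.49 and 4.57 CPM in untreated and to 7.45 and 5.66 CPM in resistant libraries, where PDGFRB rose (4.86, adjusted p = 7.69e-04) and COL1A1 did not pass (0.07, adjusted p = 0.938). Endothelial markers summed to 8.42 and 4.22 CPM in untreated and to 5.83 and 0.977 CPM in resistant libraries, without PECAM1, which was not matched. What part these markers have in the members' values was not tested. In bulk RNA a smaller share of cells that express a gene and less RNA per cell cannot be told apart.

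Of the 35 genes, 34 had enough counts to be tested. The remaining one, ELOVL4, an elongase of very long chains, had 0 counts in all 4 libraries. In resistant cells 12 genes rose, 4 fell and 18 did not pass at an adjusted p below 0.05, so 47.1% were called, beside 34% of all 16090 tested genes (16.6% of all called higher and 17.4% called lower). The test was edgeR's quasi-likelihood test with Benjamini-Hochberg adjustment over all tested genes. The median log2 fold change was 0.27 over the 34 genes and −0.01 over all tested genes. Because the members were chosen with earlier results known, their share of calls is only a description. Of the 34 genes 32 had a mean of 10 CPM or more in their higher group. Shares over all tested genes, here and below, were not matched for level. The risers were the desaturases SCD, FADS1, FADS2 and FADS3, the elongases ELOVL5 and ELOVL7, the synthetases ACSS2, ACSL1, ACSL4 and ACSL5, the phosphatidate phosphatase LPIN2 and the lipase PNPLA2. The fallers were the elongase ELOVL6, the acyltransferase GPAM and the oxidation enzymes CPT2 and ACADM. Without untreated replicate 1, or without untreated replicate 2, 7 genes were called higher in place of 12.

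**Figure D1:**
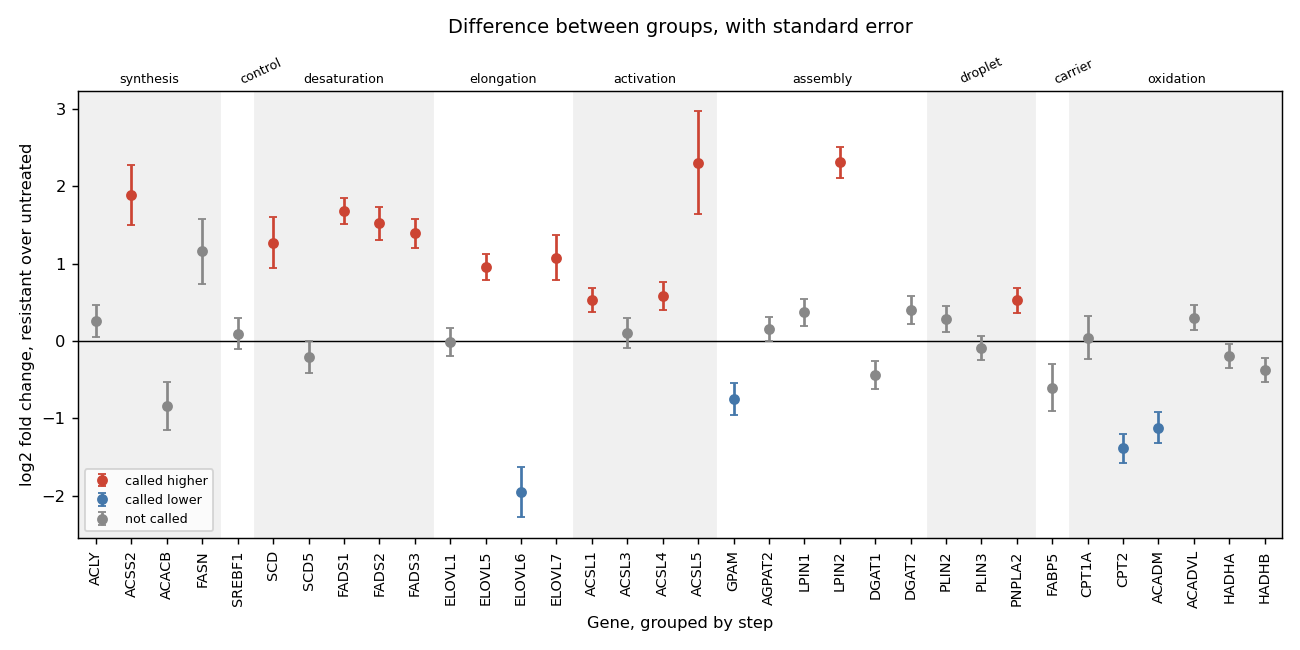
Log2 fold change of the 34 tested genes (vertical axis, resistant over untreated), grouped by step along the horizontal axis, with bars of 1 standard error. The 12 genes called higher are red, the 4 called lower are blue and the 18 not called are grey; 4 of the 5 desaturases are red, and no oxidation gene is.

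Promoter sequences of members that moved are shown because sterol regulatory elements, E-boxes and CCAAT boxes are known as binding sequences of SREBP and of its partner NF-Y. The RefSeq promoter table (GRCh38.p14) held 44 windows for 31 of the 35 genes, each from 250 bases before to 50 after a start. The windows were searched on both strands for TCACNCCAC (sterol regulatory element), CACGTG (E-box) and CCAAT. The stretches below lie before the start and outside annotated exons (GENCODE 29, also GRCh38), each on its gene's strand, and capitals mark a match on either strand. SCD and its paralog SCD5 are set side by side because SCD rose and SCD5 did not pass. FADS3, ACSS2, LPIN2 and PNPLA2 are further risers. GPAM, a faller, has no match in the stretch shown, but its window holds a CCAAT match 18 to 22 bases after the start. For a gene with several windows, the one whose stretch held the most matches is shown. The risers FADS1, ELOVL7, ACSL4 and ACSL5 and the fallers ELOVL6, CPT2 and ACADM had no match and are not shown. ACSL1, ELOVL5 and FADS2, also risers, had matches in their windows but are not shown either.
SCD (chr10:100346983-100347123, plus strand): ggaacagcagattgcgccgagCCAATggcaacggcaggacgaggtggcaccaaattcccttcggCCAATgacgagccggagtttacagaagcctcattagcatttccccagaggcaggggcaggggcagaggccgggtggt
SCD5 (chr4:82798858-82799046, minus strand): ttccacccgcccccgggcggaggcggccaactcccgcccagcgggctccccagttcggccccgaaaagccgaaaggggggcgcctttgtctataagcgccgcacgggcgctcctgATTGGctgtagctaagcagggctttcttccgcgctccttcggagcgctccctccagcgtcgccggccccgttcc
FADS3 (chr11:61891546-61891795, minus strand): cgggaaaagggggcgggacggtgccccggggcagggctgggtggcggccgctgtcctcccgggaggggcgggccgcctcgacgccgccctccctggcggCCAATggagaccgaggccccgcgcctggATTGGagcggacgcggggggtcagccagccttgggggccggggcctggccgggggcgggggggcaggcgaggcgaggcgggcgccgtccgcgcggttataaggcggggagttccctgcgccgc
ACSS2 (chr20:34874739-34874941, plus strand): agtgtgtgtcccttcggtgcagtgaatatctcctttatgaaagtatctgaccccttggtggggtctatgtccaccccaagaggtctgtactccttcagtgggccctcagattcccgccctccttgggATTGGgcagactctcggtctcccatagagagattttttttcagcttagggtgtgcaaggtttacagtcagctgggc
LPIN2 (chr18:3013316-3013394, minus strand): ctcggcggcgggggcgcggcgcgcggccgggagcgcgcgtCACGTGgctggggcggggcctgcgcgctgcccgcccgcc
PNPLA2 (chr11:818664-818901, plus strand): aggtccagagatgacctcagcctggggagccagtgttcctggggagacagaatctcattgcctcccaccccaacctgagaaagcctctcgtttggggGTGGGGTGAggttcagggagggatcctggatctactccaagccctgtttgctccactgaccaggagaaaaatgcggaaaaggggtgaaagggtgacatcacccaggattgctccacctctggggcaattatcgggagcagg
GPAM (chr10:112183766-112184015, minus strand): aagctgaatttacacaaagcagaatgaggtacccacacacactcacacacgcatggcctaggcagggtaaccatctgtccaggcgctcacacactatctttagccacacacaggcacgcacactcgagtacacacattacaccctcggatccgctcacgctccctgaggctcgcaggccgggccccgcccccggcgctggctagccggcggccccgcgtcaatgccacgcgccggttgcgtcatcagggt

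CCAAT was found in 34.1% of the 44 windows and in 34.6% of all 35116 windows in the table. Among windows of genes that rose it was found in 6 of 20, among those of genes that fell in 1 of 4, and among those of genes that did not pass in 7 of 19. SCD and SCD5 both held it. The sterol element was found in 2 windows of these genes, 1 of ACSL1 and 1 of PNPLA2, and in 1.13% of all windows. CACGTG was found in 4 windows (9.09%), those of ELOVL4, ELOVL5, LPIN2 and PLIN2. Its share was 7.26% over all windows and 9.16% over windows of tested genes. A match is a run of letters and not a shown binding site. These counts describe the windows, several of which can belong to 1 gene.

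The entry steps to synthesis moved unequally. ACSS2, which makes acetyl-CoA from acetate, rose, and no other gene of the 4 here passed. ACSS2 (ENSG00000131069, chromosome 20) had 26.8 and 28.6 CPM untreated and 142 and 62.8 CPM resistant, where the values here and below are replicates 1 and 2 in that order. Both resistant libraries lay above both untreated ones, and they were 2.25-fold apart from each other (log2 fold change 1.88 with SE 0.39 and adjusted p = 0.0155). The call ended without untreated replicate 1 (log2 fold change 1.86, adjusted p = 0.257) and without untreated replicate 2 (1.92, adjusted p = 0.241). FASN, the synthase itself (ENSG00000169710, chromosome 17), had 1079 and 630.4 CPM untreated and 2563 and 1253 CPM resistant. The groups did not overlap, but the lower resistant library was close to the higher untreated one, and FASN did not pass (log2 fold change 1.16 with SE 0.42 and adjusted p = 0.0876). Replicate 1 was 1.71-fold above replicate 2 among untreated and 2.04-fold among resistant libraries. With 1 library left out the log2 fold change of FASN ran from 0.56 (without resistant replicate 1) to 1.62 (without untreated replicate 1). FASN did not pass with DESeq2 either (adjusted p = 0.153), but it was called with limma-voom (adjusted p = 0.0244). It was also called with the replicate number as a block and without a filter on low counts.

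ACLY, ATP citrate lyase, which makes acetyl-CoA from citrate, had 509 and 364 CPM untreated and 586 and 454 CPM resistant. Its groups overlapped, and it did not pass (log2 fold change 0.25 with SE 0.21 and adjusted p = 0.371). ACACB, the acetyl-CoA carboxylase at the outer mitochondrial membrane, whose malonyl-CoA inhibits carnitine palmitoyltransferase 1, had 15.3 and 30.2 CPM untreated and 11.3 and 14.1 CPM resistant. Untreated replicate 2 was the highest of the 4, and the difference did not pass (log2 fold change −0.84 with SE 0.31 and adjusted p = 0.0686). With 1 library left out its log2 fold change ran from −1.22 (without untreated replicate 1) to −0.28 (without untreated replicate 2). ACACB was called with DESeq2 (adjusted p = 0.0310) but not with limma-voom (adjusted p = 0.0991). SREBF1 had 275 and 188 CPM untreated and 264 and 229.8 CPM resistant, with overlapping groups (log2 fold change 0.09, adjusted p = 0.75). Its sign turned without untreated replicate 2 (−0.16), and its value is uncertain because its exons overlap RAI1, an expressed gene on the opposite strand.

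Desaturases, which insert double bonds, had 4 risers among 5 tested genes and no faller, so 80% were called, beside 34% of all tested genes. SCD, the stearoyl-CoA desaturase that makes oleate, had the highest level per length of the 34 genes in both groups. SCD (ENSG00000099194, chromosome 10) had 1718 and 909.8 CPM untreated and 3757 and 2573 CPM resistant. Both resistant libraries lay above both untreated ones, although untreated replicate 1 was 1.89-fold above untreated replicate 2 (log2 fold change 1.27 with SE 0.33 and adjusted p = 0.0244). Its paralog SCD5, an enzyme of the same reaction, had 21.1 and 27.6 CPM untreated and 20.2 and 22.0 CPM resistant, with overlapping groups (log2 fold change −0.21, adjusted p = 0.465). Per kilobase of annotated exon, SCD was at 245 in untreated and 590.2 in resistant cells, in CPM per kilobase. The same measure for SCD5 was 5.68 in untreated and 4.91 in resistant cells.

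FADS1, the delta-5 desaturase of polyunsaturated fatty acids, showed the smallest adjusted p of these enzymes. It had 68.4 and 60.1 CPM untreated and 222 and 189 CPM resistant and rose 3.20-fold (log2 fold change 1.68 with SE 0.17 and adjusted p = 8.79e-05). FADS2, the delta-6 desaturase, had 22.9 and 19.0 CPM untreated and 71.6 and 48.6 CPM resistant (log2 fold change 1.52 with SE 0.22 and adjusted p = 7.18e-04). FADS3, which desaturates sphingoid bases, had 28.5 and 30.3 CPM untreated and 89.2 and 65.3 CPM resistant (log2 fold change 1.39 with SE 0.19 and adjusted p = 4.96e-04). In all of these, each resistant library was more than 2-fold above the untreated mean. FADS1 and FADS2 are uncertain, since they lie head to head on opposite strands and share 490 exonic bases, and FADS2 also shares 49 bases with FEN1 on its own strand. FADS3 has no such overlap.

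The FADS genes stand next to one another on chromosome 11. Among their 10 nearest tested protein-coding neighbours, 5 on each side in the GENCODE 29 order, 2 were called higher and 2 lower. Over all tested genes 16.6% were called higher and 17.4% lower. The log2 fold changes of these neighbours ran from −1.64 to 1.62, with a median of 0.41. FEN1, a flap nuclease of DNA replication directly beside FADS2, was the lowest of these at −1.64 (adjusted p = 0.00159). The other called neighbours were SYT7 (−0.90), RAB3IL1 (1.39) and FTH1, the ferritin heavy chain (1.62). On the side of FADS3 the order was RAB3IL1, BEST1 (1.34, adjusted p = 0.0566, not called), FTH1, INCENP (0.055) and ASRGL1 (−0.43). On the side of FADS2 it was FEN1, TMEM258 (0.41), MYRF (0.56), DAGLA (0.41) and SYT7. All these neighbours were named after their values were seen. The median over all tested protein-coding genes of chromosome 11 was 0.42. Of the 6 tested members on this chromosome 4 rose (FADS1, FADS2, FADS3 and PNPLA2), while DGAT2 and CPT1A did not pass. On other chromosomes 8 of 28 rose and 4 fell. What part the shift of the chromosome has in these values was not tested.

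Elongases, which add carbon units to acyl-CoA, moved in opposite directions. ELOVL6 (ENSG00000170522, chromosome 4), which extends palmitate to stearate, had 7.93 and 7.67 CPM untreated and 2.04 and 1.98 CPM resistant. It was 3.88-fold lower in resistant cells, and within each group the libraries were nearly level (log2 fold change −1.95 with SE 0.32 and adjusted p = 0.00148). ELOVL5, which extends polyunsaturated chains, had 315 and 269 CPM untreated and 603 and 529 CPM resistant (log2 fold change 0.95 with SE 0.17 and adjusted p = 0.00228). ELOVL7, an elongase of saturated long chains, was low and rose, with 4.25 and 5.80 CPM untreated and 10.0 and 11.2 CPM resistant (log2 fold change 1.08 with SE 0.29 and adjusted p = 0.0156). Leaving out untreated replicate 1 (adjusted p = 0.0971) or resistant replicate 2 (adjusted p = 0.0513) ended its call. ELOVL1, an elongase of very long chains, had 112 and 86.9 CPM untreated and 109 and 88.5 CPM resistant. Its groups overlapped, and its log2 fold change of −0.01 (adjusted p = 0.973) turned sign under both other scalings. Per kilobase ELOVL5 led these genes, at 83.8 in untreated and 162 in resistant cells in CPM per kilobase, and ELOVL6 was at 1.18 in untreated and 0.303 in resistant cells.

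**Figure D2:**
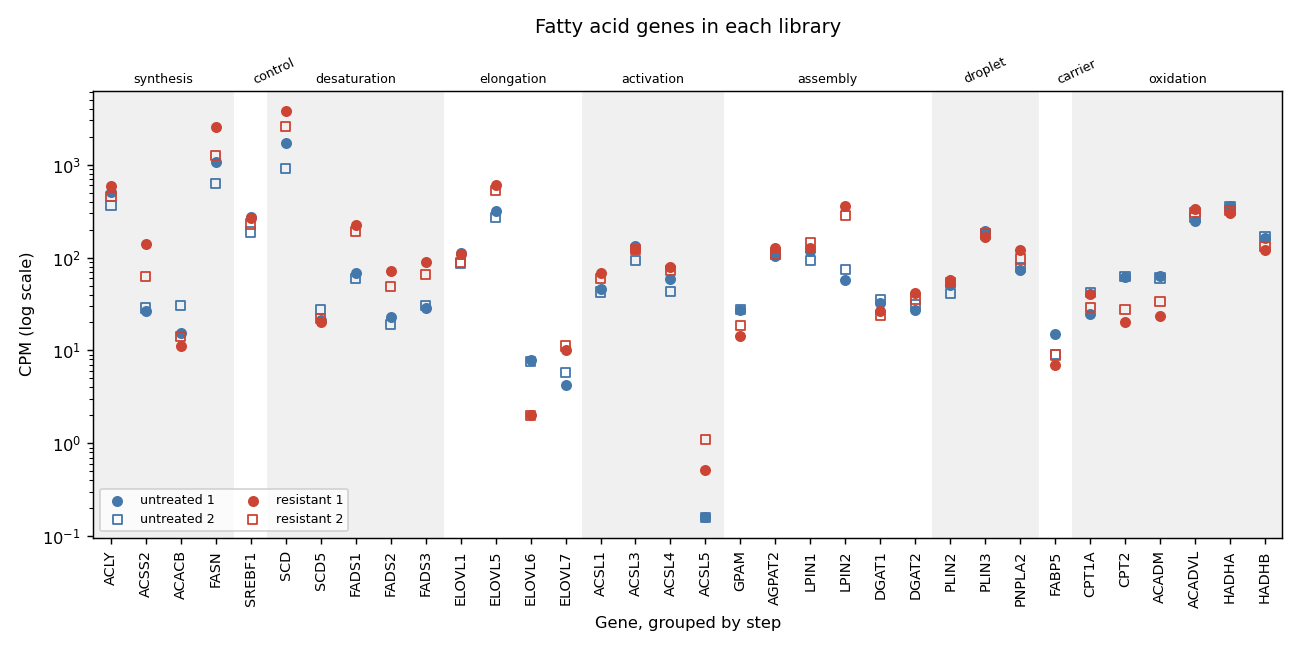
CPM of each tested gene (logarithmic vertical axis) in the 2 untreated (blue) and 2 resistant (red) libraries, with filled circles for replicate 1 and open squares for replicate 2, grouped by step. SCD and FASN are the highest, the red symbols of FADS1, FADS2, FADS3 and LPIN2 lie clear above the blue ones, and those of ELOVL6, CPT2 and ACADM lie clear below.

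Long-chain acyl-CoA synthetases, which activate fatty acids for every later use, had 3 risers among 4 and no faller. Of the 4, 75% were called, beside 34% of all tested genes. ACSL1 had 45.8 and 42.5 CPM untreated and 67.9 and 59.6 CPM resistant (log2 fold change 0.53 with SE 0.16 and adjusted p = 0.0275). ACSL4, which prefers arachidonate and other polyunsaturated chains, had 58.6 and 43.1 CPM untreated and 79.7 and 72.9 CPM resistant (log2 fold change 0.59 with SE 0.18 and adjusted p = 0.0294). ACSL1 was not called without either untreated library or without resistant replicate 1 (adjusted p up to 0.144), and the call of ACSL4 ended without untreated replicate 2 (adjusted p = 0.200) and without resistant replicate 1 (adjusted p = 0.0682). ACSL5, a synthetase of the mitochondrial outer membrane and the endoplasmic reticulum, was near the detection limit, with 6 and 6 counts in untreated and 15 and 37 in resistant libraries. Its log2 fold change of 2.30 (SE 0.66, adjusted p = 0.0217) is uncertain, because it overlaps ZDHHC6 on the opposite strand. It was lost with DESeq2, without either untreated library or without resistant replicate 2 (adjusted p up to 0.223). ACSL3, which works at forming lipid droplets, had 135 and 93.2 CPM untreated and 123 and 122 CPM resistant and did not pass (log2 fold change 0.10, adjusted p = 0.712), with a sign that turned without untreated replicate 2 (−0.15). Per kilobase ACSL3 was the highest of the 4, at 20.1 in untreated and 21.5 in resistant cells in CPM per kilobase, and ACSL5 the lowest.

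In glycerolipid assembly the first enzyme fell and a lipin rose. GPAM, the mitochondrial acyltransferase that attaches the first chain to glycerol 3-phosphate, had 27.6 and 27.3 CPM untreated and 14.3 and 18.4 CPM resistant (log2 fold change −0.75 with SE 0.20 and adjusted p = 0.0177). The call ended without untreated replicate 1 (adjusted p = 0.0828) and without resistant replicate 1 (adjusted p = 0.117). LPIN2 (ENSG00000101577, chromosome 18) is a phosphatidate phosphatase, which makes diacylglycerol. LPIN2 had 56.7 and 74.3 CPM untreated and 362 and 285 CPM resistant, a 4.94-fold rise with the smallest adjusted p of the 34 genes (log2 fold change 2.31 with SE 0.20 and adjusted p = 3.26e-05). LPIN1, its paralog, had 119 and 92.9 CPM untreated and 127 and 147 CPM resistant and did not pass (log2 fold change 0.37, adjusted p = 0.131). Per kilobase LPIN1 was above LPIN2 in untreated cells (17.4 against 10.5 CPM per kilobase), and LPIN2 above LPIN1 in resistant ones (52.0 against 22.4).

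AGPAT2, which attaches the second chain, had 103 and 107 CPM untreated and 125 and 109 CPM resistant (log2 fold change 0.15, adjusted p = 0.484). The final enzymes of triglyceride synthesis did not pass. DGAT1 had 32.5 and 35.6 CPM untreated and 26.5 and 23.9 CPM resistant (log2 fold change −0.44, adjusted p = 0.0842). It overlaps HSF1 on the opposite strand and is uncertain. DGAT2, of another protein family, had 27.4 and 30.9 CPM untreated and 41.5 and 35.3 CPM resistant (log2 fold change 0.40, adjusted p = 0.113). In both the groups did not overlap, as in 27 of the 34 tested genes (79.4%, beside 70.9% of all tested genes).

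Of the 3 lipid droplet genes 1 rose, so 33.3% were called, close to the 34% of all tested genes. PNPLA2, the lipase that starts triglyceride breakdown, had 72.9 and 78.5 CPM untreated and 121 and 96.7 CPM resistant and rose 1.44-fold (log2 fold change 0.52 with SE 0.17 and adjusted p = 0.0331). Its call was lost without any 1 of untreated replicates 1 and 2 and resistant replicate 1, with an adjusted p between 0.0639 and 0.251. PLIN2, the droplet coat protein of most cells, had 50.5 and 41.3 CPM untreated and 57.8 and 53.5 CPM resistant (log2 fold change 0.28, adjusted p = 0.229). PLIN3, another coat protein, had 194 and 179 CPM untreated and 167 and 183 CPM resistant (log2 fold change −0.09, adjusted p = 0.69). FABP5, a cytosolic fatty acid carrier, had 15.1 and 9.03 CPM untreated and 6.90 and 8.91 CPM resistant. Untreated replicate 1 stood above the other 3 libraries, and the difference did not pass (log2 fold change −0.61, adjusted p = 0.148). Over the alternative fits its log2 fold change ran from −0.94 (without untreated replicate 2) to −0.17. FABP5 has 15 named pseudogene copies in the files, which together held 67 counts against 1395 for the gene itself, so its value is uncertain to that extent.

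Among the 6 mitochondrial oxidation genes 2 fell, 0 rose and 4 did not pass, so 33.3% were called, close to the 34% of all tested genes. CPT2 (ENSG00000157184, chromosome 1), which returns the chain from carnitine to coenzyme A inside the mitochondrion, had 62.0 and 62.6 CPM untreated and 20.1 and 27.5 CPM resistant. It was 2.62-fold lower in resistant cells (log2 fold change −1.39 with SE 0.19 and adjusted p = 5.56e-04), with both untreated libraries nearly equal. ACADM (ENSG00000117054, chromosome 1), the medium-chain acyl-CoA dehydrogenase, had 63.0 and 60.3 CPM untreated and 23.4 and 33.4 CPM resistant (log2 fold change −1.12 with SE 0.20 and adjusted p = 0.00203). Both have an overlap that makes them uncertain, CPT2 of 99 exonic bases with C1orf123 on the opposite strand and ACADM of 157 with RABGGTB on its own strand. RABGGTB was also lower in resistant cells, at a log2 fold change of −0.59 (adjusted p = 0.0160).

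CPT1A, the outer carnitine palmitoyltransferase and the entry point that malonyl-CoA inhibits, had 24.5 and 42.2 CPM untreated and 40.0 and 28.7 CPM resistant. Its groups overlapped (log2 fold change 0.04, adjusted p = 0.922), and its sign turned without untreated replicate 1 (−0.27) or without resistant replicate 1 (−0.20). ACADVL, the very-long-chain dehydrogenase, had 248 and 270.5 CPM untreated and 332 and 307 CPM resistant (log2 fold change 0.30, adjusted p = 0.172) and overlaps DLG4 on the opposite strand. HADHA and HADHB, the alpha and beta subunits of the trifunctional protein, start 307 bases apart on opposite strands of chromosome 2. HADHA had 359 and 357 CPM untreated and 303 and 323 CPM resistant. HADHB had 161 and 169 CPM untreated and 121 and 133 CPM resistant. Both were lower in both resistant libraries and neither passed, with log2 fold changes of −0.20 (SE 0.16) and −0.38 (SE 0.16).

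**Figure D3:**
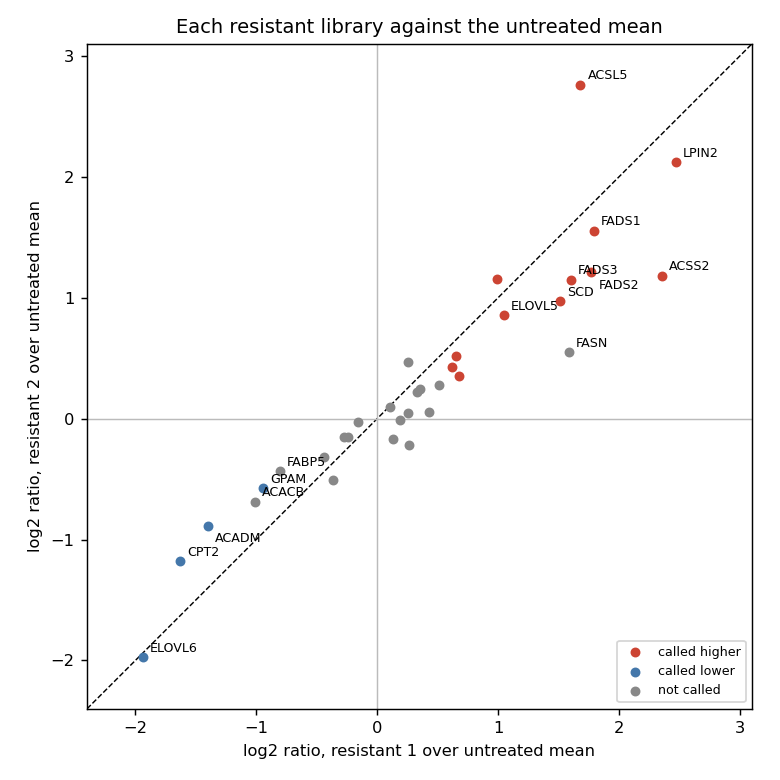
Log2 ratio of resistant library 1 (horizontal) and of resistant library 2 (vertical) to the mean of the untreated libraries for the 34 tested genes, on equal linear axes, with a dashed line of equality. ACSS2 lies well below the line (5.12-fold against 2.27-fold), as does FASN, and ELOVL6 lies on it.

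Over 1.5-fold differences between the resistant libraries were found for 3 of the 34 genes, ACSS2, FASN and ACSL5, and between the untreated libraries for 5, SCD, FASN, ACACB, FABP5 and CPT1A. With 1 library per population there is no test. All 35 genes together held 0.588% and 0.469% of the counts in untreated and 1.02% and 0.777% in resistant libraries. SCD and FASN alone made up 46.2% and 34.4% of these in untreated and 59.6% and 50.3% in resistant libraries. Without SCD and FASN the summed level of the other 33 was 3260.1 and 2935 CPM in untreated and 4290.3 and 3783 CPM in resistant libraries.

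Other genes of the pathway were read from a list of 93, of which 92 had an identifier and 77 were tested. In this list 14 rose, 19 fell and 44 did not pass, so 42.9% were called beside the 34% of all tested genes, and the median log2 fold change was −0.14. Without untreated replicate 1, 9 were called lower, and without resistant replicate 1, 11. ACACA, the cytosolic acetyl-CoA carboxylase, had no identifier matched through the name table and was not analysed here. SLC25A1, which exports citrate from mitochondria, rose from 101 ± 12.7 to 201 ± 12.2 CPM (log2 fold change 0.98 with SE 0.17 and adjusted p = 0.00169), where errors are SD with n = 2. ME1, malic enzyme, which supplies NADPH, rose from 31.4 ± 0.0159 to 80.0 ± 3.94 CPM (log2 fold change 1.35 with SE 0.16 and adjusted p = 2.09e-04). ACSS1, the mitochondrial relative of ACSS2, fell from 35.6 ± 11.3 to 11.5 ± 0.0705 CPM (log2 fold change −1.63 with SE 0.24 and adjusted p = 8.42e-04). ACSS2 and ACSS1 were thus called in opposite directions.

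Control genes of the pathway had 4 risers and 1 faller among 12 tested, so 41.7% were called, beside 34% of all tested genes. INSIG1, MLXIPL, NR1H2 and PPARA were higher and PPARGC1B lower (the last 3 named after their values were seen). INSIG1, which holds SREBP in the endoplasmic reticulum and is itself an SREBP target, had 73.9 and 34.8 CPM untreated and 674 and 283 CPM resistant (log2 fold change 3.14 with SE 0.61 and adjusted p = 0.0215). Both resistant libraries were far above both untreated ones, and replicate 1 was above replicate 2 in each group, 2.12-fold in untreated and 2.38-fold in resistant cells. It was not called without untreated replicate 1 (log2 fold change 3.80, adjusted p = 0.116), without untreated replicate 2 (2.68, adjusted p = 0.172) or without a filter on low counts (adjusted p = 0.182). SCAP, the escort of SREBP, did not pass (log2 fold change 0.26, adjusted p = 0.234), nor did MBTPS1, the protease that cuts SREBP first (0.40, adjusted p = 0.0723). MLXIPL, the carbohydrate-responsive factor ChREBP, rose from 26.1 ± 6.58 to 68.0 ± 4.53 CPM (log2 fold change 1.38 with SE 0.20 and adjusted p = 7.18e-04).

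In assembly and storage GPAT3, the glycerol 3-phosphate acyltransferase of the endoplasmic reticulum, fell from 132 ± 17.3 to 40.2 ± 2.25 CPM (log2 fold change −1.71 with SE 0.17 and adjusted p = 6.68e-05), so that GPAM and GPAT3 were both lower in resistant cells. Of the 7 tested assembly genes in this second list 4 fell and 0 rose, beside the fall of GPAM and the rise of LPIN2 among the 6 members. Called genes were 57.1% of the 7, beside 34% of all tested genes (17.4% called lower). The other 3 that fell were GPAT4, AGPAT5 and LPIN3, named after their values were seen. LPIN3, the remaining lipin, had 24.0 and 29.6 CPM untreated and 13.6 and 18.5 CPM resistant (log2 fold change −0.74 with SE 0.22 and adjusted p = 0.0262), so LPIN2 was the lipin that rose, LPIN3 the one that fell and LPIN1 the one that did not pass. LPIN3 overlaps EMILIN3 on the opposite strand and is uncertain. G0S2, an inhibitor of the lipase encoded by PNPLA2, was low and rose, with 0.162 and 0.321 CPM untreated and 3.93 and 2.28 CPM resistant (log2 fold change 3.66 with SE 0.57 and adjusted p = 0.00111). LIPA, the lysosomal lipase (−0.18, adjusted p = 0.432), and HACD3, a dehydratase of elongation (−0.04, adjusted p = 0.858), did not pass.

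Beyond the 6 oxidation genes, 20 others listed under the mitochondrial step were tested, of which 6 fell and 2 rose (40% called, beside 34% of all tested genes). The list also holds ACAA1, a peroxisomal thiolase, and CPT1C, of the endoplasmic reticulum, both named after their values were seen. Neither passed (−0.05, adjusted p = 0.849, and 0.31, adjusted p = 0.536). Over both lists 8 of 26 fell, 2 rose and 16 did not pass, with a median log2 fold change of −0.21. Of all tested genes 17.4% were called lower and 16.6% higher. ACAA2, the thiolase of the last reaction, fell from 124 ± 6.42 to 57.7 ± 1.41 CPM (log2 fold change −1.10 with SE 0.15 and adjusted p = 5.96e-04). SLC25A20, the carrier that brings acylcarnitine to CPT2, fell from 11.4 ± 1.11 to 5.25 ± 0.650 CPM (log2 fold change −1.12 with SE 0.27 and adjusted p = 0.0101) and was chosen after its value was seen. The risers were ACAD11, a dehydrogenase of long chains (log2 fold change 1.54 with SE 0.18 and adjusted p = 2.35e-04), and CRAT, carnitine acetyltransferase (log2 fold change 0.67 with SE 0.16 and adjusted p = 0.0104), the latter named after its value was seen. The value of ACAD11 is uncertain. ACAT1, which handles acetoacetyl-CoA, did not pass (0.31, adjusted p = 0.146).

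**Figure D4:**
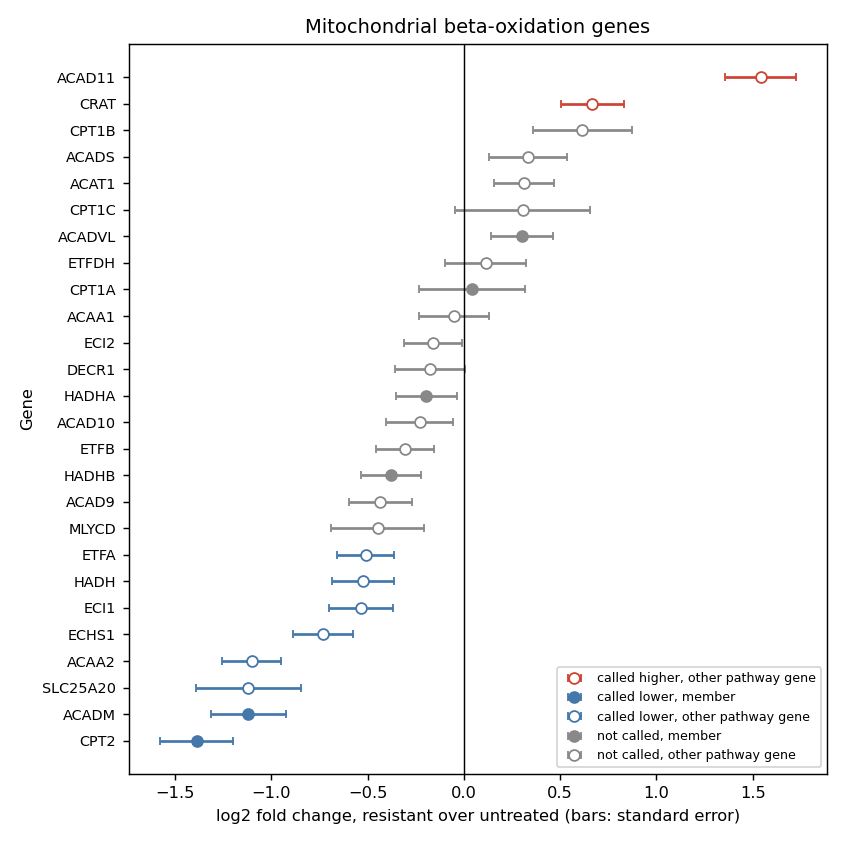
Log2 fold change (horizontal axis, resistant over untreated, bars of 1 standard error) of the 26 tested genes listed under mitochondrial beta-oxidation, ordered by value. Filled symbols mark the 6 members and open ones the 20 other genes. The 8 genes called lower (blue) lie between −1.39 for CPT2 and −0.51 for ETFA (named after its value was seen), and the 2 called higher (red) are ACAD11 and CRAT.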

How the data were processed

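Each library came as 1 table of expected counts by gene, which the authors deposited without scaling, as the file headers and column totals show. The tools STAR 2.7.2b, RSEM 1.3.1 and the build GRCh37 are named in the submitters' processing notes, without roles; annotation release and strand setting are not given in the sources used here. Of the values above 0, 82.8% were whole with no tolerance, and expected counts were rounded. Identifiers were matched through the gene name table.

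Genes were kept with filterByExpr (16090 of 57773), scaled with TMM factors, and tested on all 4 libraries in R 4.3.3 with the quasi-likelihood F-test of edgeR 4.0.16 (legacy form, robust). CPM use the scaled library sizes, an SE is the log2 fold change over the square root of F, and CPM per kilobase divide by the union of GENCODE 29 basic exons, whose build differs. Overlaps come from that annotation, and 1 of them is not reported here. DESeq2 1.42.0 and limma 3.58.1 were alternatives. The test was also run on simulated data, where calls on unchanged genes exceeded the threshold's share and most small changes were not found. A called gene may therefore be unchanged, and a gene that did not pass may have changed.

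Members and lists were chosen with earlier results of these data known. All 35 members are named. Of the other pathway genes the 8 called with the smallest adjusted p, the 4 not called with the highest CPM, and ACACA, INSIG1 and SCAP are named, and further names are marked as chosen later.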

Additional observations from a re-analysis of the deposited data

How the results depend on the processing

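Of the 16 calls among the fatty acid genes 9 were made under all 12 alternatives with a fit (SCD, FADS1, FADS2, FADS3, ELOVL5, ELOVL6, LPIN2, CPT2 and ACADM), and 7 were lost under at least 1. Genes called higher ranged from 7 to 11 and genes called lower from 3 to 5 with 1 library left out. For the other pathway genes these ranges were 10 to 15 and 9 to 13, and for all tested genes 1510 to 2548 and 1322 to 2493. At an adjusted p below 0.01 the counts were 5 higher and 3 lower for members, 10 and 7 for other pathway genes, and 1444 and 1388 for all genes. The log2 fold change of ELOVL1 turned to 0.0018 with RLE scaling and with DESeq2, 0.019 with upper-quartile scaling and 0.021 with the stricter filter of 1 CPM in 2 libraries, and ran from −0.19 to 0.20 with 1 library left out (0.13 without resistant replicate 2). With 1 library left out SREBF1 ran from −0.16 to 0.41 and ACSL3 from −0.15 to 0.41, both lowest without untreated replicate 2, and CPT1A from −0.27 (without untreated replicate 1) to 0.47 (−0.20 without resistant replicate 1). None of these 4 was called, and the cause was not tested. With the replicate number as a block 13 members were called higher and 5 lower. FASN (log2 fold change 1.12, adjusted p = 7.54e-04) and ACACB (−0.77, adjusted p = 0.0317) were then called. Same-numbered libraries did not deviate together over all tested genes (r = −0.06 between deviations from the group means), and the labels do not pair them. FASN was also called with limma-voom (adjusted p = 0.0244) and without a filter on low counts (1.69e-06). Depth limits ACSL5, with 6 counts in each untreated library, and ELOVL4 was not tested.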

Other observations

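Fatty acid uptake and peroxisomal genes were not described above, and the following were chosen after their values were seen. SLC27A1, a fatty acid transport protein, rose from 30.4 ± 8.06 to 67.5 ± 18.0 CPM (SD, n = 2; log2 fold change 1.15 with SE 0.24 and adjusted p = 0.00611), while SLC27A4, of the same family, fell from 38.4 ± 7.04 to 23.6 ± 0.107 CPM (log2 fold change −0.70 with SE 0.19 and adjusted p = 0.0177). Of 7 genes listed as peroxisomal 1 rose, 1 fell and 5 did not pass, so 28.6% were called beside 34% of all tested genes. The riser was EHHADH, a bifunctional oxidation enzyme (log2 fold change 0.86 with SE 0.24 and adjusted p = 0.0189), and the faller ABCD3, a transporter of the peroxisomal membrane (log2 fold change −1.04 with SE 0.19 and adjusted p = 0.00225). Of the PPAR receptors, which bind fatty acids, PPARA rose from 28.1 ± 8.57 to 58.1 ± 11.3 CPM (log2 fold change 1.04 with SE 0.23 and adjusted p = 0.00789), and PPARD (−0.14, adjusted p = 0.618) and PPARG (0.10, adjusted p = 0.849) did not pass. PPARA, like SLC25A1 above, lies on chromosome 22, where the median over all tested protein-coding genes was 0.46. What part the shift of that chromosome has in their values was not tested. BSCL2, the droplet protein seipin, rose (log2 fold change 0.95 with SE 0.21 and adjusted p = 0.00663) and is uncertain because a read-through gene shares its exons. FITM2, which also acts in droplet formation, fell (log2 fold change −0.89 with SE 0.19 and adjusted p = 0.00516). The same median was −0.36 for chromosome 20, where ACSS1, LPIN3 and FITM2 fell and ACSS2 rose. For chromosome 5, where PPARGC1B fell and ELOVL7 rose, it was −0.41. What part these 2 shifts have in the values was not tested.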
